A study of Bos taurus with 8 samples.

Results

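Heat shock proteins and chaperones bind unfolded proteins, help them reach their folded form and keep them from aggregating. The 52 genes described here were chosen by gene name: the HSP70 and HSP110 family (HSPA genes and HSPH1), HSP90, small heat shock proteins (HSPB), the chaperonins of the cytosol and the mitochondrion (CCT genes, TCP1, HSPD1 and HSPE1), protein disulfide isomerases (PDIA genes and P4HB), the lectins CALR and CANX, and 6 transcription factors and effectors of the heat shock and unfolded protein responses. Each of the 52 was read by 1 probe of the 15008 distinct probes on the array. The name rule also took in HSPBP1 and HSPBAP1, which bind heat shock proteins or their partners and are not chaperones by family. It covers J-domain (DNAJ) genes and ATF6 too, but no probe used here carried such a name, so they were not analysed here.

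The study compared doses of an antibody against bacterial lipopolysaccharide (LPS), placed in the rumen of cattle during subacute ruminal acidosis (SARA), a fall in rumen pH brought on by grain. Fistulated Holstein bulls aged 5 to 6 months (11 in the trial) ate roughage for 11 days, a diet rich in grain for 2 days and roughage again for 1 day. For 14 days they were given egg-yolk immunoglobulin with the antibody by way of the fistula, at 0, 2 or 4 g daily in a replicated Latin square, and the labels do not say whether the 0 g group received another yolk product. The arrays used here come from liver sampled 2 days after the challenge in animals 19, 20, 23 and 24, with 1 array for each of the 4 animals at 0 g and another at 4 g, so both groups had been through the grain diet and no unchallenged group was part of the comparison. The 2 g dose was not analysed here.

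In the cytosol, the transcription factor HSF1 drives HSP70, HSP90, small heat shock protein and chaperonin genes when unfolded protein builds up. In the endoplasmic reticulum (ER) the HSP70 protein HSPA5 holds the sensors of the unfolded protein response in check. Their release leads to active XBP1 and ATF4, then to DDIT3 and TRIB3, and to more folding enzymes and lectins. Hepatocytes secrete most plasma proteins and keep a large ER for folding them, while the mitochondrion has its own HSP70 (HSPA9) and chaperonin (HSPD1 with HSPE1).

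A level is the log2 signal of a probe minus the log2 of the 75th percentile of its array, and 4 values in a sentence are in the order of animals 19, 20, 23 and 24. Of the 52 members, 45 passed the filter of being well above background on 4 or more of the 8 arrays and were tested, 44 of them being so on all 8. The arrays differed in brightness: the 75th percentile of the signal was 125.8 for animal 19 at 4 g and 126.3 for animal 20 at 0 g, against 218.0 to 311.7 on the other 6. The labels name liver, while their extraction protocol names rumen epithelium. Hepatocyte markers were well above background on every array (12 of 12), and 3 to 6 of 11 rumen and squamous epithelium markers were. Of the latter, KRT5, KRT6B and DSP were so on 8 arrays, SBSN on 7, and PKP1 and A2ML1 on 1 each. TP63, KRT14, KRT4, DSG3 and DSC3 were so on 0 arrays. The summed relative signal of the 11 was highest on the 0 g array of animal 19, at 2.41 against 0.21 to 0.58 elsewhere. The 0 g array of animal 23 stood apart by pancreatic acinar genes, with a summed relative signal of 2273 against 10.7 to 25.5 elsewhere. All 12 of 12 markers were above background there, against 4 to 9 on the other arrays. The count was 9 on the 4 g array of animal 23 and on the 0 g array of animal 24. In addition, 11 probes, none of them a member, put the arrays on 2 levels more than 3 log2 units apart. The arrays of animal 19 shared a level at 8 of the 11, as did those of animal 20, but those of animals 23 and 24 did at 5 each. Arrays of animals 23 and 24 at the same dose shared a level at 11 of 11 and split by dose at 6. At these 6 probes they grouped by dose and not by the animal in the labels. Over all tested probes, deviations from the dose means correlated at 0.21 within animal 23 and 0.13 within animal 24, against −0.19 and −0.18 within animals 19 and 20. Whether the labels pair these 4 arrays rightly was not tested, and the median over the members is therefore given below for each pair of animals alone.

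The probe sequences below belong to members on which the results turn, as the array files give them, 5′ to 3′, with positions on the UMD 3.1 cattle assembly. The files do not say which exon or untranslated region a probe lies in. CCT7, HSPA9 and PDIA5 are among the 4 members that were lowest on the 2 dimmest arrays relative to the other 6, and PDIA4, HSPA13 and DDIT3 are the 3 that were highest there.
CCT7 (chr11:11188088-11188147, minus strand): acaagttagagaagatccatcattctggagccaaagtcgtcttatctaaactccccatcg
HSPA9 (chr7:51511338-51511397, minus strand): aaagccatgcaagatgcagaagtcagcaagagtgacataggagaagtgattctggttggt
PDIA5 (chr1:68048693-68051715, plus strand): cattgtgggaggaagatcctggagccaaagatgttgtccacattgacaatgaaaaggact
PDIA4 (chr4:113000924-113000983, minus strand): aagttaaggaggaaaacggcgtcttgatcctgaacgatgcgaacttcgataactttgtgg
HSPA13 (chr1:22299173-22299232, plus strand): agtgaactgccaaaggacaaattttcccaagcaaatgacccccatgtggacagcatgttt
DDIT3 (chr5:56288739-56288798, plus strand): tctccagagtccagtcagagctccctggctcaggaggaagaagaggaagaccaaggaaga

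The probes of HSPA5 and PDIA2 are shown because both members were highest on the 0 g array of animal 23. Like the PDIA5 probe, they span more than their 60 bases on the assembly, as a probe that crosses a splice junction does. Of the 52 member probes, 7 have a span other than 60, but not all of these are much longer. The TRIB3 probe (chr13:61176202-61176223) spans fewer than 60 bases, and the PDIA3 probe (chr21:55946283-55946343) hardly more.
HSPA5 (chr11:96116101-96116578, minus strand): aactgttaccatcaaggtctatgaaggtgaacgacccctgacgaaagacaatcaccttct
PDIA2 (chr25:312081-312216, plus strand): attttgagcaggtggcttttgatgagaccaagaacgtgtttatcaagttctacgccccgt

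Because HSP70 genes resemble each other, their 14 probes were compared in all 91 pairs. HSPA1L and HSPA6 were the most alike, with 23 identical bases of 35 aligned without gaps, marked in capitals here.
HSPA1L (chr23:27337840-27337899, plus strand): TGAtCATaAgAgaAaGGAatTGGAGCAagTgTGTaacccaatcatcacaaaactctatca
HSPA6 (chr3:8027961-8028020, minus strand): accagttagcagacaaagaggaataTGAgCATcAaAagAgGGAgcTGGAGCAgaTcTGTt
Over all 52 member probes the longest shared run of bases was 12 (HSPBAP1 and TCP1). The HSPA1A probe is listed with 2 RefSeq records of near-identical copies of the gene, so its values may be those of both. The HSPA2 probe lies on chromosome 10, but its description in the files names HSPA1A, so its identity is uncertain. The HSPB1 probe comes from an expressed sequence tag with no position on the assembly. HSPB11 is now named IFT25, a part of the transport machinery of cilia.

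None of the 45 measured chaperone and heat shock genes passed the test between 4 g and 0 g. At an adjusted p under 0.05 in limma, 0 of 45 members and 0% of all 10985 probes were called, and the smallest adjusted p of a member was 1.00. At an unadjusted p under 0.05, 0 of the 45 members passed, against 1.09% of all probes (120). The difference was above 0 for 18 members and below 0 for 27, with a median of −0.03 on the log2 scale, beside a median of 0.03 over all probes, of which 55.1% were higher at 4 g. This split was not stable: with arrays scaled to their median signal 24 members were above 0 and 21 below, without animal 19 it was 27 and 18, and without animal 20 it was 14 and 31. HSPBP1 and HSPBAP1 had the same sign in 4 of 4 animals (4.44% of the members, against 5.24% of all probes); both were higher at 4 g, as were 3.17% of all probes in every animal, while 0 members and 2.08% of all probes were lower in every animal. The doses overlapped in every measured member, and did not in 0.61% of all probes.

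The number of arrays limited the precision of this comparison. Differences over all tested probes ran from −3.65 to 2.37 log2 units, yet 0 passed, and the smallest adjusted p in limma was 0.614. The half-width of the 95% interval was 0.68 log2 units in the median member, a 1.60-fold change, and ran from 0.51 (CCT2) to 1.77 (CCT7). These intervals were not adjusted for the number of probes, so a change of that size need not pass the test. For 33 of the 45 members (73.3%, against 64.3% of all probes) the whole interval lay within 1 log2 unit of 0. The median difference over the 45 was 0.01 with animals 19 and 20 alone and −0.04 with animals 23 and 24 alone. Single members moved more: 11 turned sign with the first pair alone and 9 with the second, with shifts of up to 0.41 log2 units. When 1 animal was left out, the median moved most without animal 19, to 0.044, and without animal 20, to −0.131, these being the animals with a dim array. Fits that leave out single arrays drop the animal block, here and below. Without the 2 dimmest arrays the median was −0.04, without the 0 g array of animal 23 it was −0.02, and without all 3 it was −0.101, with 12 members above 0 and 33 below.

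**Figure D1:**
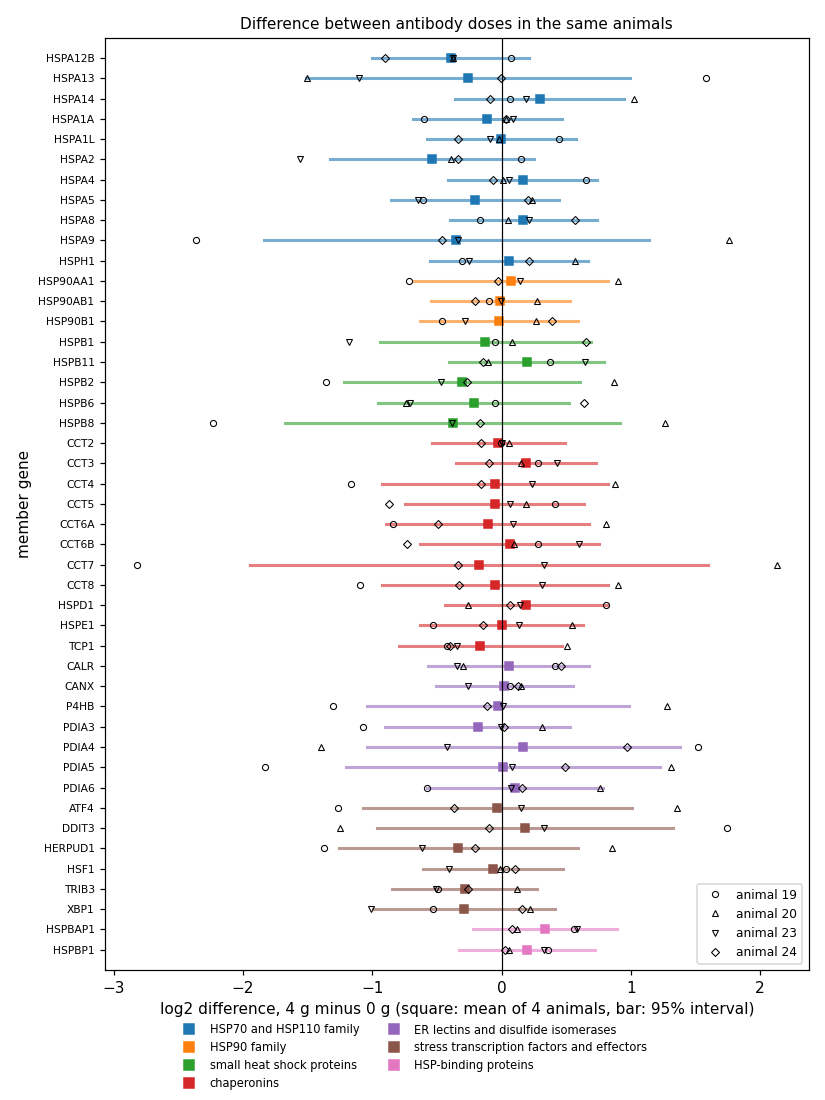
Log2 difference between 4 g and 0 g (horizontal axis, log2 units) for the 45 measured members (vertical axis), coloured by family. Squares are means of 4 animals, bars are 95% intervals from limma and open symbols are single animals; every interval includes 0, and the circles of animal 19 and the upward triangles of animal 20 often lie on opposite sides of it.

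HSF1, the transcription factor of the heat shock response, had the narrowest range of the 45 members, 0.43 over the 8 arrays. It read 1.59, 1.62, 1.60 and 1.48 at 0 g and 1.62, 1.61, 1.20 and 1.59 at 4 g. The 4 g array of animal 23 lay below the rest, and the difference of −0.07 (95% interval −0.61 to 0.48) did not pass the test.

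The 11 measured HSP70 and HSP110 genes had a median difference of −0.11, with 4 above 0 and 7 below. HSPA1A, the stress-inducible HSP70, read 3.83, 4.16, 4.64 and 4.51 at 0 g and 3.24, 4.19, 4.72 and 4.54 at 4 g. The 4 arrays of animals 23 and 24 were all above the 4 of animals 19 and 20, while the doses overlapped. The dose difference was −0.11 (−0.69 to 0.46), and it was 0.16 without the 2 dimmest arrays. HSPA8, the constitutive HSP70 of the cytosol, read 0.63, 0.32, 0.10 and 0.50 at 0 g and 0.46, 0.37, 0.31 and 1.07 at 4 g. The highest of these was the 4 g array of animal 24, and the difference was 0.17 (−0.40 to 0.74).

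HSPH1 and HSPA4 are HSP110 proteins, which exchange the nucleotide of HSP70 and so let it release its client. HSPH1 read 1.20, 0.90, 1.27 and 1.58 at 0 g and 0.89, 1.47, 1.02 and 1.79 at 4 g, a difference of 0.06 (−0.56 to 0.67). HSPA4 read 2.11, 2.24, 1.95 and 2.42 at 0 g and 2.76, 2.25, 2.01 and 2.35 at 4 g, a difference of 0.16 (−0.41 to 0.74). Neither separated the doses, and HSPA4 differed most in animal 19.

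The 3 smallest unadjusted p-values of this family belonged to HSPA2, HSPA12B and HSPA14. HSPA2, known from male germ cells, read −2.42, −1.50, −0.43 and −1.96 at 0 g and −2.27, −1.89, −1.99 and −2.30 at 4 g. Its difference of −0.53 (−1.32 to 0.25) came largely from the 0 g array of animal 23, which was 1.07 above the next array, and it was −0.15 without that array and −0.19 without animal 23. HSPA12B, a distant HSP70 relative known from endothelial cells, read −3.42, −3.22, −2.61 and −2.86 at 0 g and −3.35, −3.59, −2.98 and −3.76 at 4 g. It was lower at 4 g in 3 of 4 animals, by −0.39 on average (−1.00 to 0.21). HSPA14, which works at the ribosome, read −2.08, −3.03, −1.83 and −1.73 at 0 g and −2.02, −2.01, −1.64 and −1.81 at 4 g, a difference of 0.30 (−0.36 to 0.95) that was 0.06 without the 2 dimmest arrays.

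HSP90AA1 and HSP90AB1, the inducible and the constitutive HSP90 of the cytosol, hold kinases and steroid receptors in a form that can be activated. HSP90AA1 read 4.95, 3.90, 4.45 and 4.91 at 0 g and 4.23, 4.80, 4.59 and 4.88 at 4 g, with its lowest values on the 2 dimmest arrays. HSP90AB1 read 5.67, 5.69, 5.68 and 6.09 at 0 g and 5.57, 5.97, 5.67 and 5.88 at 4 g, all within 0.52 of each other. Their differences were 0.07 (−0.67 to 0.82) and −0.01 (−0.54 to 0.53).

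Of the 5 measured small heat shock proteins, which hold unfolded proteins without using ATP, 1 was above 0 and 4 were below, with a median difference of −0.22. The 1 above 0 is HSPB11, which the name rule placed here although it is now IFT25. The other 4 were all below 0, with a median of −0.26, beside 55.1% of all probes above 0. This was not stable: without animal 19, HSPB2 (0.04) and HSPB8 (0.24) were above 0, and HSPB1 (−0.15) and HSPB6 (−0.27) below. HSPB1 read −3.11, −3.08, −2.12 and −3.48 at 0 g and −3.16, −3.00, −3.30 and −2.83 at 4 g; the 0 g array of animal 23 was the highest, and the difference of −0.13 (−0.94 to 0.69) was 0.15 without it and 0.23 without animal 23. HSPB8, a partner of BAG3 in autophagy of misfolded proteins, read 0.71, −0.43, 0.83 and 0.91 at 0 g and −1.52, 0.84, 0.45 and 0.75 at 4 g. Its 2 lowest values were those of the 2 dimmest arrays, so that 4 g minus 0 g was −2.23 in animal 19 and 1.27 in animal 20. The difference was −0.38 (−1.67 to 0.92), and −0.14 without these arrays.

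Another 3 genes of this group were measured on all 8 arrays. HSPB2, known from heart and muscle, ran from −4.15 to −2.55, with a difference of −0.31 (−1.22 to 0.61). HSPB6, a regulator of smooth muscle, ran from 0.71 to 2.10, with a difference of −0.22 (−0.96 to 0.53). HSPB11 ran from −0.55 to 0.31, with a difference of 0.19 (−0.40 to 0.79). The groups overlapped for each of them.

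HSPBP1, which releases nucleotide from HSP70, and HSPBAP1, a protein that binds HSPB1, were the members with 1 sign in every animal. HSPBAP1 read −2.57, −2.43, −3.47 and −2.92 at 0 g and −2.01, −2.31, −2.88 and −2.84 at 4 g, a difference of 0.34 (−0.22 to 0.89). HSPBP1 read 1.31, 0.89, 0.61 and 1.12 at 0 g and 1.67, 0.95, 0.94 and 1.15 at 4 g, a difference of 0.20 (−0.33 to 0.72). For both, the 0 g array of animal 23 was the lowest of the 8 and the 4 g array of animal 19 the highest. Without the former and the 2 dimmest arrays the difference was 0.07 for HSPBAP1 and −0.20 for HSPBP1, with a median of −0.07.

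The TCP1 ring complex (CCT) folds actin and tubulin in the cytosol, and 9 genes of its subunits were measured: TCP1, CCT2, CCT3, CCT4, CCT5, CCT6A, CCT6B, CCT7 and CCT8. With the mitochondrial HSPD1 and HSPE1 the chaperonins had a median difference of −0.05, with 4 of 11 above 0 and 7 below; it was 0.136 without animal 19 and −0.180 without animal 20. CCT2 read 3.17, 3.16, 3.54 and 3.67 at 0 g and 3.17, 3.22, 3.54 and 3.51 at 4 g, so that animals 19 and 20 lay below animals 23 and 24 at both doses. TCP1 read 2.42, 1.91, 2.76 and 3.00 at 0 g and 2.00, 2.41, 2.42 and 2.60 at 4 g, a difference of −0.16 (−0.79 to 0.47). CCT5 read 0.27, 0.19, 0.53 and 1.10 at 0 g and 0.68, 0.37, 0.60 and 0.23 at 4 g, a difference of −0.05 (−0.74 to 0.64). CCT3 had the smallest p of the family, at 4.78, 4.55, 4.34 and 5.02 at 0 g against 5.06, 4.71, 4.76 and 4.93 at 4 g, a difference of 0.19 (−0.35 to 0.73). The remaining subunits gave differences of −0.05 for CCT4, −0.11 for CCT6A, 0.06 for CCT6B, −0.05 for CCT8 and −0.17 (−1.95 to 1.60) for CCT7, the widest interval of the members.

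In the mitochondrion, HSPD1 forms the folding chamber and HSPE1 its lid. HSPD1 read 3.48, 3.58, 3.02 and 3.45 at 0 g and 4.28, 3.32, 3.17 and 3.52 at 4 g, a difference of 0.19 (−0.44 to 0.82). HSPE1 read 5.67, 4.89, 5.53 and 5.89 at 0 g and 5.14, 5.43, 5.67 and 5.75 at 4 g, a difference of 0.00 (−0.63 to 0.63). On the 2 dimmest arrays HSPD1 was above and HSPE1 below the range of the other 6.

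Inside the ER, CALR and CANX are the lectins that hold glycoproteins until they are folded. CALR read 6.73, 6.68, 6.50 and 6.26 at 0 g and 7.14, 6.38, 6.16 and 6.72 at 4 g, a difference of 0.06 (−0.57 to 0.68). CANX read 4.09, 3.89, 3.93 and 4.11 at 0 g and 4.16, 4.05, 3.66 and 4.24 at 4 g, a difference of 0.02 (−0.51 to 0.55). HSP90B1, the HSP90 of the ER, read 6.65, 6.12, 6.21 and 6.51 at 0 g and 6.19, 6.39, 5.93 and 6.90 at 4 g, a difference of −0.02 (−0.63 to 0.59). All 3 varied by less than 1 log2 unit over the 8 arrays, with overlapping doses.

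The protein disulfide isomerases form and rearrange disulfide bonds. P4HB, the founding member, read 5.49, 4.28, 5.52 and 5.89 at 0 g and 4.19, 5.57, 5.53 and 5.78 at 4 g, a difference of −0.03 (−1.04 to 0.98). PDIA3, the partner of the lectins, read 4.05, 3.59, 3.81 and 4.19 at 0 g and 2.97, 3.91, 3.81 and 4.22 at 4 g, a difference of −0.18 (−0.90 to 0.53). PDIA6, which attenuates ER stress sensors, read 6.41, 5.67, 6.17 and 6.75 at 0 g and 5.83, 6.43, 6.24 and 6.91 at 4 g, a difference of 0.10 (−0.58 to 0.79). In all 3 the arrays of animal 19 at 4 g and of animal 20 at 0 g were the 2 lowest of the 8. PDIA4, which works with HSPA5, went the other way on these arrays, at 1.95, 3.11, 1.01 and 1.48 at 0 g and 3.47, 1.71, 0.59 and 2.45 at 4 g. Its range of 2.88 was the widest of the 45 members, and its difference was 0.17 (−1.04 to 1.38). PDIA5 ran from −3.50 to −1.56, with a difference of 0.01 (−1.20 to 1.23).

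HSPA5 read 2.97, 2.20, 3.43 and 2.96 at 0 g and 2.36, 2.43, 2.78 and 3.16 at 4 g, a difference of −0.20 (−0.85 to 0.45). Of the effectors downstream, XBP1 read 5.03, 4.70, 5.69 and 5.00 at 0 g and 4.50, 4.91, 4.68 and 5.16 at 4 g, a difference of −0.29 (−0.99 to 0.41). The probe does not tell the spliced, active XBP1 transcript from the unspliced one as far as the files say. HERPUD1, which helps clear misfolded ER proteins, read 1.64, 0.46, 2.35 and 1.52 at 0 g and 0.27, 1.31, 1.74 and 1.32 at 4 g, a difference of −0.33 (−1.26 to 0.59). TRIB3, a brake on ATF4 and AKT, read −1.56, −1.48, −0.45 and −0.95 at 0 g and −2.05, −1.37, −0.96 and −1.20 at 4 g, a difference of −0.28 (−0.85 to 0.28). Each of these 4 was highest on the 0 g array of animal 23, and without that array, and so without the animal block, the differences were −0.02 for HSPA5, −0.09 for XBP1, −0.05 for HERPUD1 and −0.06 for TRIB3. With both arrays of animal 23 left out and the block kept, they were −0.06, −0.05, −0.24 and −0.21.

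ATF4, the transcription factor made when translation is slowed, read 2.51, 1.28, 2.72 and 2.87 at 0 g and 1.25, 2.64, 2.87 and 2.50 at 4 g, a difference of −0.03 (−1.07 to 1.01). DDIT3 (CHOP), which ATF4 induces and which can lead to cell death, read −1.47, −0.53, −1.43 and −1.69 at 0 g and 0.27, −1.78, −1.10 and −1.78 at 4 g, a difference of 0.18 (−0.96 to 1.33). On the 2 dimmest arrays ATF4 was the lowest and DDIT3 the highest of the 8.

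**Figure D2:**
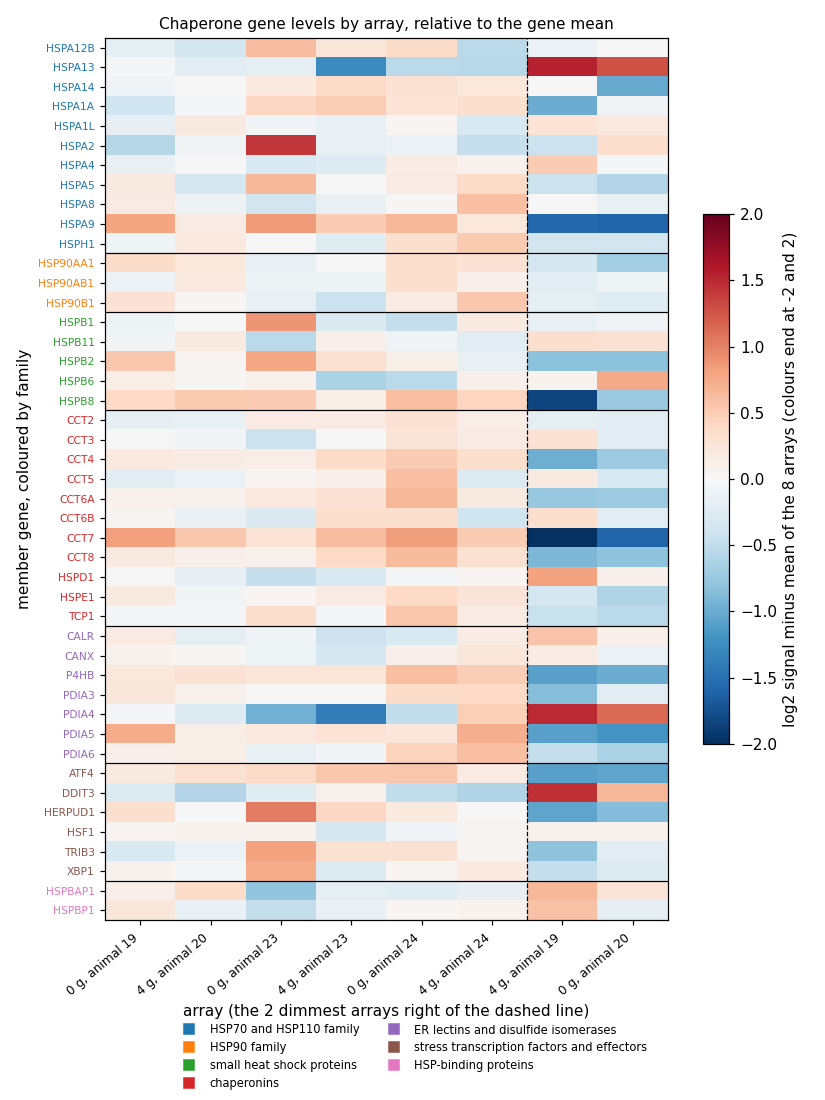
Level of the 45 measured members on each array, as the log2 signal minus the gene's mean over the 8 arrays (colour, log2 units, ending at −2 and 2), with genes in rows by family and arrays in columns. The 2 columns right of the dashed line are the dimmest arrays, at different doses, where CCT7, HSPA9 and HSPB8 are blue and PDIA4, HSPA13 and DDIT3 red; no such split follows the dose.

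Among the 45 tested members, wide differences lay between the 2 dimmest arrays and the other 6. As these arrays have different doses and animals, they moved the differences of animals 19 and 20 in opposite directions. CCT7 read 0.44, −1.99, −0.11 and 0.45 at 0 g and −2.38, 0.14, 0.22 and 0.11 at 4 g, and its mean on the 2 arrays minus that on the other 6 was −2.39. HSPA9, the HSP70 of the mitochondrial matrix, read −0.04, −2.43, 0.02 and −0.16 at 0 g and −2.40, −0.67, −0.32 and −0.62 at 4 g, and the same difference was −2.12. The other way, HSPA13, an HSP70 of the microsomes, read −0.72, 0.59, −0.86 and −1.23 at 0 g and 0.86, −0.92, −1.96 and −1.23 at 4 g, and was 1.88 higher on the 2 arrays. In each of the 3 genes both arrays lay outside the range of the other 6.

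Of the 45 members, 26 had both of these arrays outside the range of the other 6 (57.8%), against 44.0% of all probes. They were below it in 19 members (42.2%, against 19.7% of all probes) and above it in 7 (15.6%, against 24.3%). Chaperonins were below in 7 of 11 (TCP1, CCT2, CCT4, CCT6A, CCT7, CCT8 and HSPE1), and 1, HSPD1, was above. Among ER lectins and isomerases 4 of 7 were below (P4HB, PDIA3, PDIA5 and PDIA6) and PDIA4 above. In the HSP70 and HSP110 family HSPA5, HSPA9 and HSPH1 were below and HSPA13 and HSPA1L above, among the small heat shock proteins HSPB2 and HSPB8 were below and HSPB11 above, and HSP90AA1 was below in its family. The stress factors divided evenly, with ATF4 and HERPUD1 below and DDIT3 and HSF1 above. These counts have no margin, and some members passed narrowly. For CCT2 the nearer dim array read 3.1709 against a lowest value of 3.1710 on the other 6. The nearer dim array read 1.617 against a highest value of 1.608 for HSF1, and −5.045 against −5.063 for HSPA1L. Deviations from the dose means correlated at 0.62 between the 2 arrays over all tested probes, a description over probes of a single pair. The mean on the 2 arrays minus that on the other 6 correlated with the GC content of the probes at 0.05 over the 45 members. It did so at −0.0032 over 10964 probes. Member probes ran only from 35% to 55% GC. The parts of base composition and of array brightness in the pattern were not tested.

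On all 8 arrays the dose difference was −0.35 (−1.84 to 1.14) for HSPA9 and −0.26 (−1.51 to 1.00) for HSPA13. Without the 2 dimmest arrays it was −0.10 for CCT7, −0.48 for HSPA9, 0.10 for PDIA4, −0.44 for HSPA13 and −0.03 for DDIT3. No member passed at an adjusted p under 0.05 in limma in that fit, which leaves 3 arrays a dose and drops the animal block, while 5 of all probes did.

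**Figure D3:**
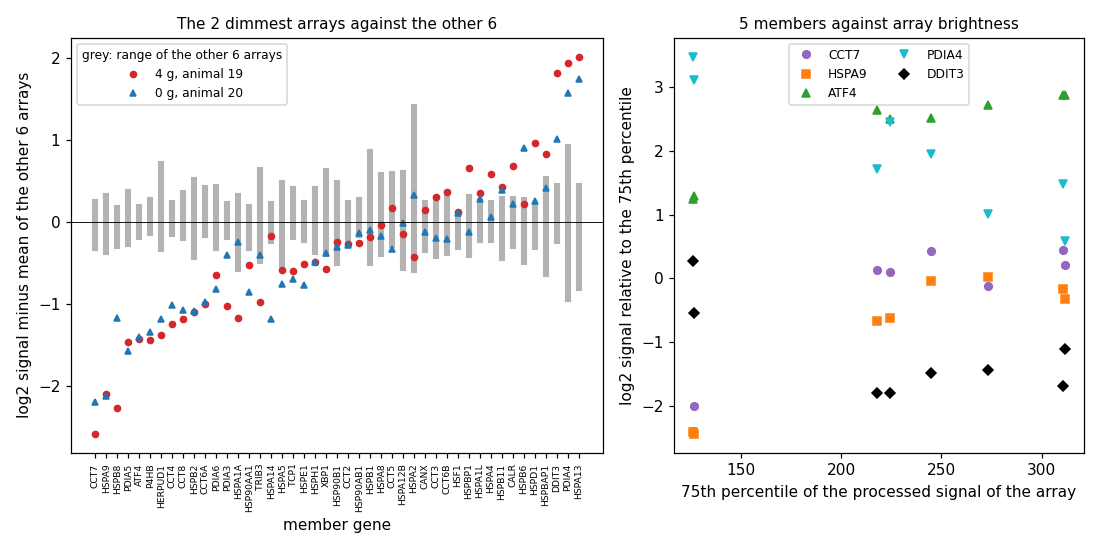
Left, log2 signal of the 45 members on the array of animal 19 at 4 g (circles) and that of animal 20 at 0 g (triangles) minus the mean of the other 6 arrays, whose range is the grey bar. Right, level of CCT7, HSPA9, ATF4, PDIA4 and DDIT3 on the 8 arrays (vertical axis, log2) against the 75th percentile of the array's signal (horizontal axis, linear); the 2 arrays near 126 stand apart in all 5 genes, and the other 6 overlap.

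PDIA2, an isomerase known from the pancreas, was well above background on 1 array only, the 0 g array of animal 23. There it read 4.45, and on the other 7 arrays, where it was not well above background, it read between −8.41 and −6.31. Pancreatic acinar markers had a mean level of 6.62 on this array and of −4.91 to −3.39 on the other 7, with CEL at 8.72 against −7.03 to −3.66. PDIA2 was left out of the tests because it was well above background on fewer than 4 arrays. HSPA6, an inducible HSP70, was also well above background on this array alone, at −4.81 against −6.66 to −5.53 elsewhere.

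This array was the highest of the 8 for 9 of the 45 measured members (20.0%, against 12.1% of all probes): HSPA5, XBP1, HERPUD1, TRIB3, HSPA2, HSPA9, HSPA12B, HSPB1 and HSPB2. HERPUD1 exceeded the next array by 0.61, XBP1 by 0.54, TRIB3 by 0.50 and HSPA5 by 0.27. It was the lowest for 7 members (15.6%, against 15.7% of all probes), namely CCT3, HSPA4, HSPA8, HSPB11, HSPBAP1, HSPBP1 and HSPD1. The part of pancreatic RNA in these values was not tested, and in a tissue sample more cells of a type and more RNA per cell cannot be told apart.

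**Figure D4:**
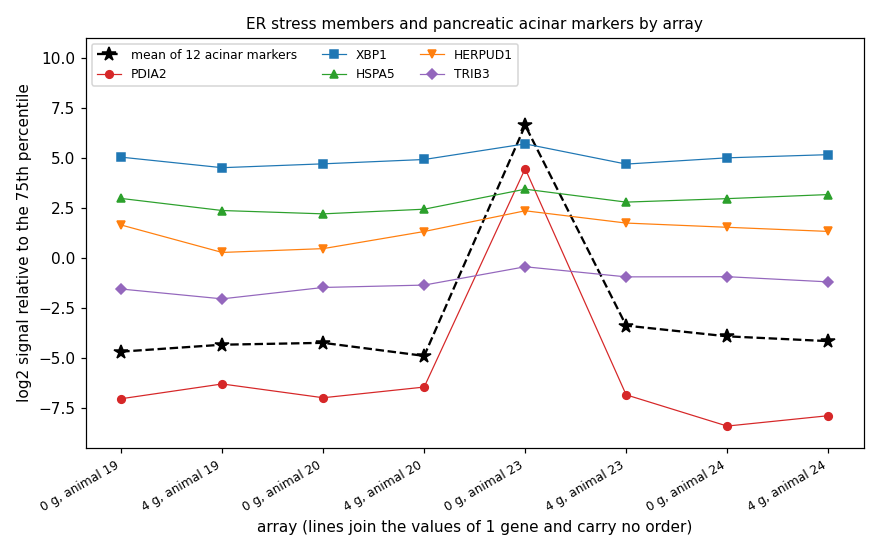
Level of PDIA2, XBP1, HSPA5, HERPUD1 and TRIB3 on the 8 arrays (vertical axis, log2 relative to the 75th percentile), with the mean of 12 pancreatic acinar markers as black stars. The 0 g array of animal 23 is the highest for all 6 lines; PDIA2 is well above background there only, and lines join values without implying an order.

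Between animals, the 4 arrays of animals 23 and 24 were all above the 4 of animals 19 and 20 for 6 members (13.3%, against 3.71% of all probes): HSPA1A, CCT2, CCT6A, TCP1, HSPA14 and TRIB3. The means of the 4 arrays were 4.60 against 3.86 for HSPA1A, 3.56 against 3.18 for CCT2 and −0.89 against −1.62 for TRIB3. HSPBAP1 alone was all below (2.22%, against 5.80% of all probes), at −3.03 against −2.33. The first pair of animals lay on slide row 1 and the second on row 2, so row and animal cannot be told apart, and the 2 dimmest arrays are both in row 1.

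Among the members outside the tests, HSPA12A was well above background on 1 array, the 4 g array of animal 20. HSPA4L, CCT8L2, HSPB3 and HSPB9 were well above background on 0 arrays, which bounds their signal and does not show that the genes are silent. HSPA1L, a testis-expressed HSP70 beside HSPA1A on chromosome 23, was measured on 5 of the 8 arrays and varied from −5.55 to −4.96, with a difference of −0.00 (−0.58 to 0.57).

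Other genes of the pathways were looked up from fixed lists. Of 40 listed genes of the ER stress response and of ER-associated degradation, 35 were measured. Of these, 9 were above 0 and 26 below, beside 55.1% of all probes above 0. The median difference was −0.11, and 0 were called at an adjusted or an unadjusted p under 0.05 in limma. Whether the split of this list holds without animal 19, or without another animal, was not tested. The split of the 45 members went from 18 above 0 and 27 below to 27 above and 18 below without animal 19. Both of the 2 dimmest arrays lay outside the range of the other 6 in 16 of the 35, against 44.0% of all probes. ATF3, a stress transcription factor downstream of ATF4, read 0.53, 1.63, 1.90 and 1.61 at 0 g and 0.15, 1.27, 1.58 and 1.33 at 4 g, lower in 4 of 4 animals by −0.33 on average (−0.84 to 0.17). EIF2AK3 and DERL1 of this list were also lower in 4 of 4 animals, as were 2.08% of all probes. Such counts rest on the pairing in the labels. DERL3, a channel component of ER-associated degradation, had a difference of −0.59 (−1.52 to 0.35). Its highest value, −1.63, was on the 0 g array of animal 23, as was that of ATF3, and the part of this array in the split of the list was not tested. Neither ATF3 nor DERL3 passed the test.

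Of 22 listed cytosolic co-chaperones and HSF1 partners, 20 were measured, 10 above 0 and 10 below, with a median of 0.01. The co-chaperones BAG6 and BAG2 had the smallest p, with differences of 0.22 (−0.38 to 0.81) and −0.21 (−0.79 to 0.37). Of 15 genes of mitochondrial protein quality control, 14 were measured, 7 above 0 and 7 below, with a median of 0.00. The import receptor TOMM20 gave −0.39 (−1.23 to 0.46) and TIMM44, which tethers HSPA9 to the inner membrane channel, 0.22 (−0.32 to 0.76). Of 9 listed genes of prefoldin, which hands actin and tubulin to CCT, and its relatives, 8 were measured, 3 above 0 and 5 below, with a median of −0.03. The subunits VBP1 and PFDN4 gave 0.24 (−0.43 to 0.91) and −0.18 (−0.86 to 0.51). In these 3 lists, too, 0 genes were called at either threshold in limma. Both of the 2 dimmest arrays lay outside the range of the other 6 in 7 of the 20 co-chaperones and HSF1 partners. The same held in 10 of the 14 mitochondrial genes and in 5 of the 8 prefoldin genes, against 44.0% of all probes.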

How the data were processed

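Liver RNA labelled with Cy3 was hybridised to 1-colour Agilent arrays with probes of 60 bases. Per the file headers, Feature Extraction 11.0.1.1 made the processed signal, a background-subtracted spot intensity on a linear scale that was not adjusted from array to array; the submitters' processing notes name version 9.5. The series table deposited by the authors holds log2 values centred near the array's 75th percentile, with column medians of −3.08 to −2.86 and a correlation of 1.00 with the log2 processed signal of each array, and was used as an alternative. Its exact centring is not given in the sources used here.

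From the 15110 non-control features, 48 outlier spots were left out, spots of 1 probe were averaged, and log2 of the processed signal minus the array's 75th percentile was taken. No spot was saturated, and 64.4% to 80.4% of probes were well above background per array. All 8 arrays were on 1 slide with 1 scan. The 10985 probes that were well above background on 4 or more arrays were tested with limma 3.58.1 in R 4.3.3 (data.table version 1.17.8; lmFit and eBayes, 2-sided), with a block for the animal and p-values adjusted by Benjamini-Hochberg over all of them at 0.05. Intervals are 95% intervals of that fit. The fit was tested on simulated data with 1 noise level for all probes and independent arrays. The 2 dimmest arrays, whose deviations correlated, were not copied, so the simulation cannot say how the fit behaves with them.

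The block follows the Latin square, in which each animal receives every dose, and the numbers in the titles; deviations from the dose means correlated at −0.19, −0.18, 0.21 and 0.13 between the arrays of animals 19, 20, 23 and 24. The period in which an animal had a dose is not in the labels. The number of arrays limits the precision.

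The members, lists and rules were chosen with earlier results of these data known. Named whatever their value were HSF1, the main HSP70, HSP90, small heat shock, chaperonin and ER genes and the stress effectors; in addition, per family the 3 members with the smallest p and the one with the widest range over arrays, and per pathway list the 2 genes with the smallest p. Further members named by array pattern were chosen after their values were seen. A RefSeq gene table of ARS-UCD2.0 served for current names only, and old and new symbols of 1 gene were counted once in a list.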

Additional observations from a re-analysis of the deposited data

Results flagged for a closer look

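Each dose group of 4 arrays was screened, for every member, for an array far from the other 3 by Dixon's criterion. Of 104 groups screened, 12 held such an array, where 5.2 would be called by chance at 1 in 20. Over the 45 tested members the share was 11.1% of 90 groups, near the 9.37% over all tested probes. On the 2 dimmest arrays, 6 members stood apart. On the 4 g array of animal 19, P4HB was lowest at 4.19, CCT4 at 2.00, CCT7 at −2.38, HSPA9 at −2.40 and HSPB8 at −1.52, and HSPB3, well above background on 0 arrays, was highest at −5.05. On the 0 g array of animal 20, HSPA9 was lowest at −2.43 and HSPB8 at −0.43. On the 4 g array of animal 23, HSPB6 was lowest at 0.71 and HSF1 at 1.20. The 0 g array of animal 23 was highest for PDIA2 at 4.45, the 1 array on which it was well above background. On the 0 g array of animal 24, HSP90AB1 was highest at 6.09.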

How the results depend on the processing

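Over 19 other settings, 18 of them planned and 1 added after seeing the data (without the 0 g array of animal 23 and the 2 dimmest arrays, with no block), no member passed at an adjusted p under 0.05 in limma; the smallest was 0.971. Without the animal as a block (no replicate block), 0 members and 0 of all probes passed and the median over the members was −0.03, so the block changed no call. Over all probes, 5 passed without the 2 dimmest arrays and 5 in the added setting. Leaving out 1 animal moved the median over the members from −0.131 to 0.044 and that of the chaperonins from −0.180 to 0.136, and also turned the sign for the HSP70 and HSP110 family, HSP90 and the ER lectins and isomerases; those of the HSP-binding proteins and the stress factors kept theirs. The median of the small heat shock proteins ran from −0.38 to 0.044 when 1 animal was left out (0.044 without animal 19), and was 0.035 in the added setting, where that of the HSP-binding proteins was −0.066. The cause was not tested. Differences of HSPBAP1, HSPA12B, HSPA5, HSPB11 and XBP1 had 1 sign in every setting run, whereas those of the other 40 members turned in at least 1. With array weights 1 of the 45 members, HSPA2, had an unadjusted p under 0.05 in limma, as did 533 of all 10985 probes. Those weights were largest for the arrays of animal 23, at 2.34 against 0.46 to 1.20 for the others. Without the 2 dimmest arrays 1 member, HSPA9, had such a p, as did 307 of all probes.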
